A study of Mus musculus with 6 samples.

Results

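The genes described are 6 Frizzled receptor genes (Fzd1, Fzd3, Fzd4, Fzd6, Fzd7 and Fzd8) and 4 genes for secreted proteins that bind or oppose Wnt signals (Sfrp1, Sfrp2, Frzb and Dkk3). They were read by every probe set whose only gene symbol in the platform annotation was 1 of these 10, which gave 13 of the 12488 probe sets on the array, 9 for receptors and 4 for antagonists. In all, 8251 genes were named by a probe set with a single symbol. The study measured total RNA from dissected mouse lung at stage E11.5, in mid-gestation, on 6 arrays. The branching region (3 arrays) was taken from the right and left lungs together, and the non-branching region (3 arrays) held the main bronchi with a piece of the trachea. No strain, genotype, treatment or number of pooled embryos is given in the sources used here, and nothing states that replicates came from separate dissections, so p-values measure only the spread between these samples.

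Frizzled proteins are multi-pass membrane receptors that bind Wnt ligands through an extracellular cysteine-rich domain and pass the signal to Dishevelled inside the cell. Secreted Frizzled-related proteins, among them Sfrp1, Sfrp2 and Frzb (also called Sfrp3), carry a similar cysteine-rich domain without a membrane anchor and can bind Wnts or Frizzleds outside the cell, which in most settings lowers Wnt signalling. Dickkopf proteins act mainly on the Lrp5 and Lrp6 co-receptors, and Dkk3 is a divergent member of that family whose effect on Wnt signalling differs between settings. In the early mouse lung, Wnt signals pass between the epithelium and the surrounding mesenchyme and act on airway growth, smooth muscle and tracheal cartilage.

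Values are deposited intensities on a linear scale, with array medians from 212 to 229. Background was set at 147, the 95th percentile of 114 values from controls that match no mouse transcript (bacterial and yeast genes). Differences are in log2 units, with a positive value where branching was higher, and were tested with limma over 9316 probe sets, with a call at a Benjamini-Hochberg adjusted p under 0.05. By this rule 0.902% of all tested probe sets were called higher and 1.13% lower in branching, and the 3 values of each region did not overlap in 20.8% of them (9.79% with branching above and 11% with branching below). Correlations of log2 values between arrays ran from 0.899 to 0.918 within a region and from 0.880 to 0.907 between regions. All 17 epithelial markers that could be read exceeded background on at least 1 array, whereas Fgf10 of the lung mesenchyme was below it on all 6.

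Of the 10 genes, 8 were tested, each read by its brightest probe set, and none passed. Among the 5 tested receptors the count was 0 by limma, with 0 at an unadjusted p under 0.05. Among the 3 tested antagonists the count was also 0, with 2 at an unadjusted p under 0.05, Sfrp1 and Sfrp2, both lower in branching. Of all tested probe sets 14.6% had an unadjusted p under 0.05 and 2.03% were called. Fzd6 and Frzb were among the dimmest 25% of probe sets and were not tested.

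**Figure D1:**
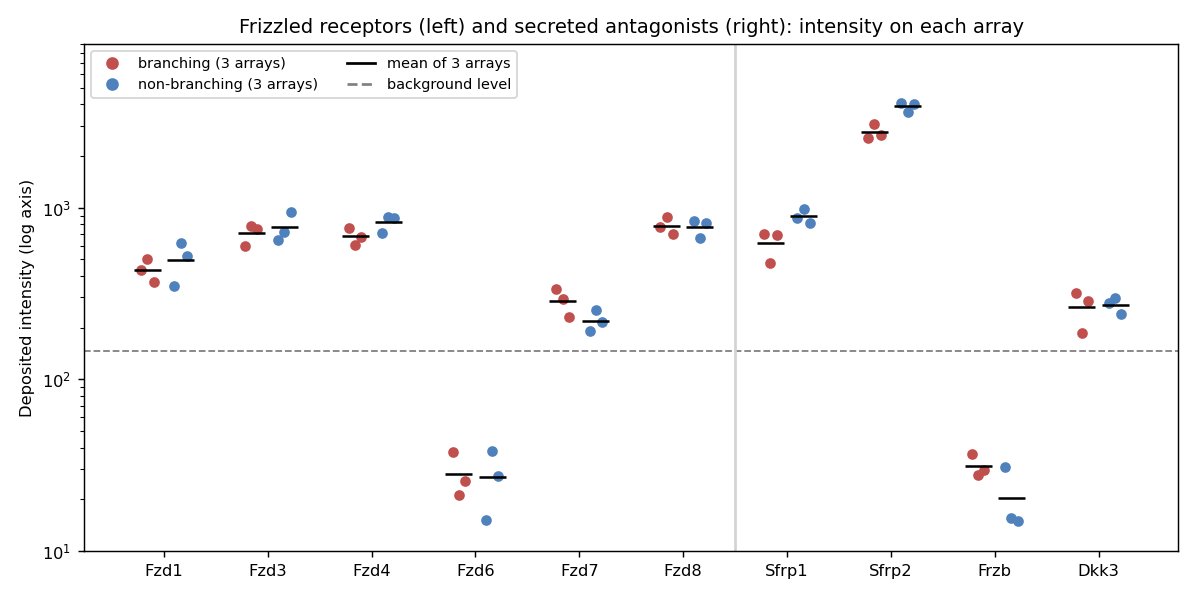
Deposited intensity (log axis) of each gene's brightest probe set on the 3 branching (red) and 3 non-branching (blue) arrays, with black lines for the means and a dashed line at the background level of 147. The regions overlap for every receptor and are apart for Sfrp1 and Sfrp2, while Fzd6 and Frzb lie below background on all arrays; levels of different genes are read by different probes and are not comparable.

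Among the receptors, Fzd7, which transduces both beta-catenin and polarity signals in several tissues, had the highest log2 difference of the brightest probe sets. Its intensity was 336.3, 293.7 and 229.6 on the branching arrays and 190.6, 253.2 and 216.6 on the non-branching arrays. Branching replicates 1 and 2 were above all non-branching arrays and replicate 3 lay among them, so the regions overlapped. The log2 difference was 0.37 ± 0.29 (SE, n = 3 per region, limma adjusted p = 0.618), a ratio of 1.29 with a 95% confidence interval from 0.827 to 2.03.

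Fzd8, a receptor able to act with Lrp6 in beta-catenin signalling, had values of 773.0, 881.7 and 698.2 in branching and 838.1, 668.1 and 809.8 in non-branching. The regions lay over the same range, and the log2 difference was 0.02 ± 0.17 (SE, limma adjusted p = 0.970, 95% confidence interval -0.35 to 0.40). Fzd1 had values of 433.9, 501.5 and 369.1 in branching and 350.3, 622.8 and 519.7 in non-branching. The lowest and the highest of its 6 values were both non-branching, and the difference was -0.17 ± 0.26 (limma adjusted p = 0.826, interval -0.74 to 0.41).

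Fzd3, known for its part in planar polarity and axon guidance, was read by 2 probe sets that did not differ in sign. The brighter, of a design that can also match related transcripts, gave 594.7, 786.3 and 750.6 in branching and 652.7, 718.1 and 947.3 in non-branching (log2 difference -0.11 ± 0.19, SE, limma adjusted p = 0.846). The dimmer gave 228.3, 148.4 and 99.5 against 136.8, 291.3 and 163.2 (-0.32 ± 0.45, limma adjusted p = 0.810). The regions overlapped on both, and on the dimmer 1 array of each region was below background.

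Fzd4, a receptor for Norrin as well as Wnts in blood vessels, gave opposite signs on its probe sets. The brightest, also of a less specific design, read 760.1, 607.4 and 677.7 in branching and 712.4, 879.5 and 869.1 in non-branching. Branching replicate 1 was above non-branching replicate 1, so the regions overlapped, and the log2 difference was -0.27 ± 0.17 (SE, limma adjusted p = 0.518, 95% confidence interval -0.64 to 0.11). The second probe set, whose name marks an incomplete set of probes, read 122.5, 174.1 and 143.9 in branching and 14.1, 92.9 and 16.4 in non-branching. All 3 branching values were above all 3 non-branching values, but only the 174.1 of branching replicate 2 exceeded background, so no fold is given, and the probe set did not pass (limma adjusted p = 0.203). It cleared the filter on dim probe sets through its branching values, so its test rested on the region where it was high. The fitted size depends on the floor of 16, which lies above the 14.1 of non-branching replicate 1. The third probe set had values from 5.0 to 14.0 on all arrays and was not tested. Which of these probe sets follows Fzd4 transcripts was not tested.

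**Figure D2:**
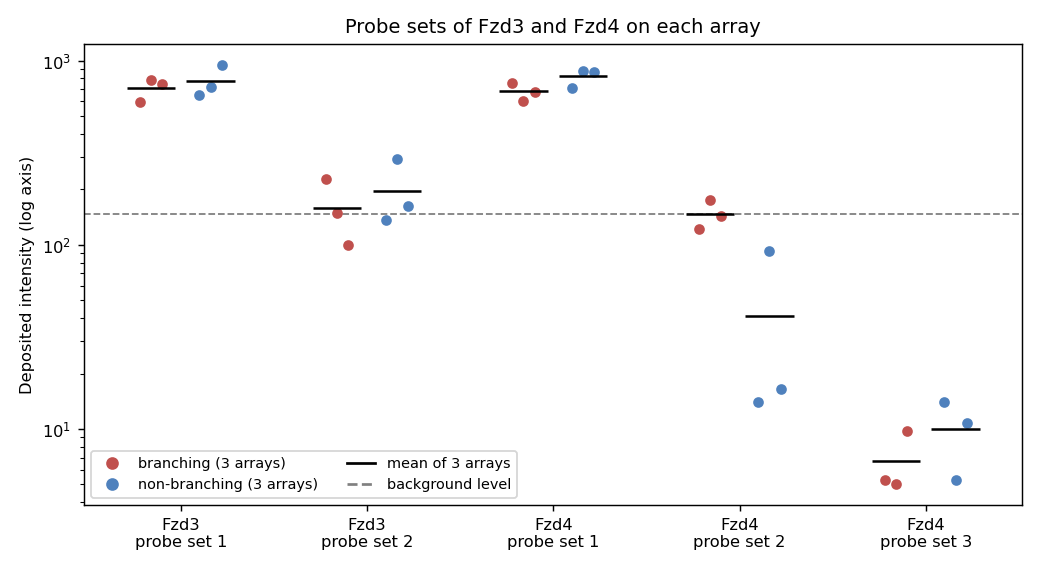
Deposited intensity (log axis) on each array for the 2 probe sets of Fzd3 and the 3 of Fzd4, ordered by brightness, with red for branching, blue for non-branching, black lines for means of 3 arrays and a dashed line at background. The second Fzd4 probe set is higher in branching (122.5 to 174.1 against 14.1 to 92.9) while the first overlaps between regions with a higher non-branching mean, 820 against 682.

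Fzd6, which takes part in planar polarity of hair and inner ear, ranged from 21.1 to 37.6 in branching and from 15.1 to 38.2 in non-branching. All 6 values were below the background level of 147, so these arrays give no difference for it.

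Of the antagonists, Sfrp2 came nearest to a call. Its intensity was 2560.3, 3094.0 and 2643.1 on the branching arrays and 4065.4, 3636.1 and 4018.2 on the non-branching arrays. Every branching value was below every non-branching value, as in 11% of all tested probe sets. Means were 2766 ± 287 for branching and 3907 ± 235 for non-branching arrays (SD, n = 3), and the log2 difference was -0.50 ± 0.11 (SE, limma adjusted p = 0.0504, unadjusted p = 0.00104). The ratio was 0.706, with a 95% confidence interval from 0.598 to 0.835. By p it ranked 192 among the 9316 probe sets, of which 189 were called. The call changed with processing: the adjusted p ran from 0.0346 to 0.294 over 16 alternatives and was under 0.05 in 5 of them, 1 being the omission of branching replicate 2 (0.0461), while the difference stayed between -0.58 and -0.45.

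Sfrp1, which like Sfrp2 is expressed in lung mesenchyme, had values of 707.1, 476.8 and 690.3 in branching and 872.5, 980.9 and 818.0 in non-branching. Every branching value was again below every non-branching value, with branching replicate 2 the lowest. The log2 difference was -0.53 ± 0.19 (SE, n = 3 per region), close in size to that of Sfrp2 with a wider error, and it did not pass (limma adjusted p = 0.237, unadjusted p = 0.0213). The ratio was 0.693, with a 95% confidence interval from 0.514 to 0.934. Over the 16 alternatives the difference ran from -0.63 to -0.35, the last without branching replicate 2, and the adjusted p from 0.174 to 0.469.

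**Figure D3:**
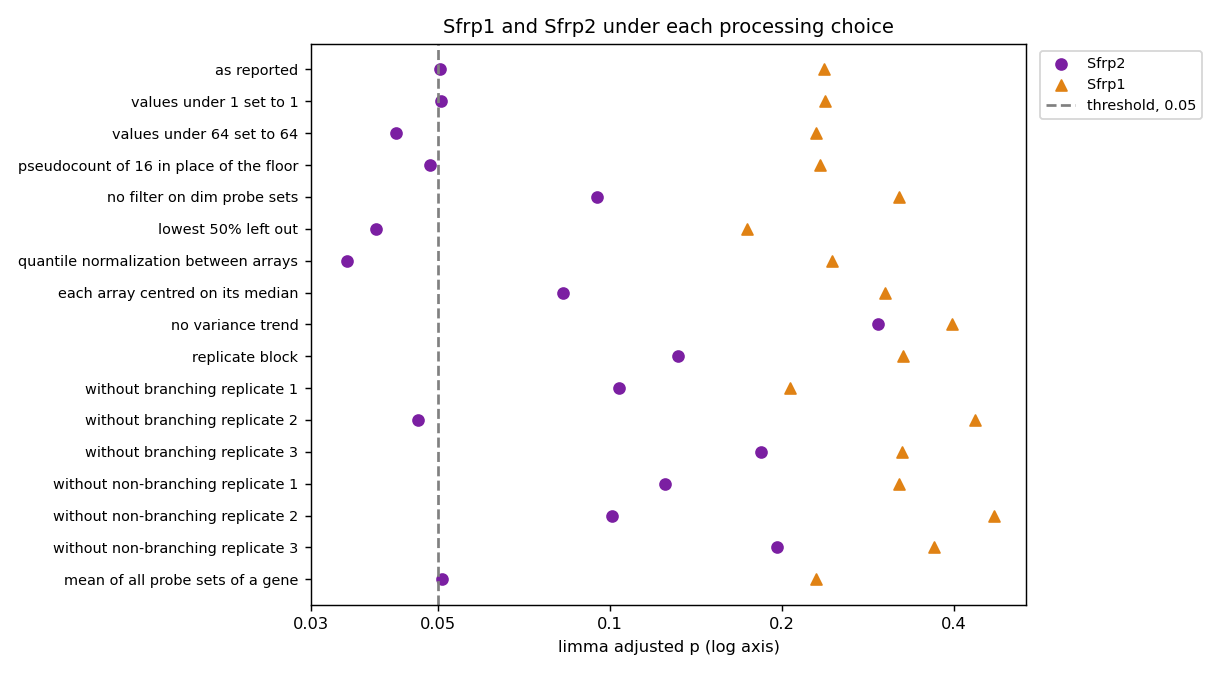
Adjusted p from limma (log axis) of Sfrp2 (circles) and Sfrp1 (triangles) as reported and under each of 16 alternatives, with a dashed line at 0.05. Sfrp2 lies on both sides of the line, from 0.0346 to 0.294, and Sfrp1 stays to its right, from 0.174 to 0.469.

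Dkk3 had values of 318.8, 186.2 and 285.9 in branching and 278.9, 298.4 and 240.5 in non-branching. The lowest and the highest value were both branching, and the log2 difference was -0.08 ± 0.30 (SE, limma adjusted p = 0.939, 95% confidence interval -0.75 to 0.59). Frzb, first described in developing cartilage, ranged from 27.6 to 36.6 in branching and from 14.9 to 30.9 in non-branching. All 6 values were below background, so no difference is given.

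Upstream sequences in RefSeq (GRCm38.p6) were taken for 5 of the 10 genes, Fzd1, Fzd4, Fzd7, Sfrp2 and Frzb. A chromosome was left out when they were taken, so a gene without a window here is not shown to lack one in RefSeq. Those of Sfrp2, the gene nearest to a call, of the receptor Fzd7 with a difference of the other sign, and of Frzb, an antagonist below background, are shown to set the upstream bases of the classes side by side. Each is the 250 bases before the annotated start, 5′ to 3′ on the strand of the gene. They lie at chr3:83766071-83766320 (plus strand) for Sfrp2, chr1:59481897-59482146 (plus strand) for Fzd7 and chr2:80447397-80447646 (minus strand) for Frzb. Capitals mark matches, on either strand, to CTTTGA (the core bound by TCF and LEF factors, the nuclear effectors of Wnt signalling), CCAAT (the CCAAT box), GGGCGG (the GC box bound by Sp factors) or TATAAA (the TATA box).
Sfrp2: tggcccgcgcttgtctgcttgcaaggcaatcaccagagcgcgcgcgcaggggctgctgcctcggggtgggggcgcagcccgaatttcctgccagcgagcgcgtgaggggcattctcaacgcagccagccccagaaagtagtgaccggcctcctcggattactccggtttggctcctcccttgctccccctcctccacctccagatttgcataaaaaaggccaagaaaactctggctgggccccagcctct
Fzd7: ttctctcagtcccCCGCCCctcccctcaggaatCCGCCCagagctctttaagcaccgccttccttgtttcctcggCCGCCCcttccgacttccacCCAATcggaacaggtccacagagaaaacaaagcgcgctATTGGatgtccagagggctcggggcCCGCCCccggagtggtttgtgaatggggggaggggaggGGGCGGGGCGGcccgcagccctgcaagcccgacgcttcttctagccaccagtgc
Frzb: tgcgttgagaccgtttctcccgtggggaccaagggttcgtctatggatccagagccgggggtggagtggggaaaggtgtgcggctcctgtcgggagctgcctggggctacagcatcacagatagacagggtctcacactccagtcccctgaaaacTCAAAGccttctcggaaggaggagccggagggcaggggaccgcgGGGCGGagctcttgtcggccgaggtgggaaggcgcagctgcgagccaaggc

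The Sfrp2 window held none of the 4 motifs. The Fzd7 window held 6 GC boxes, of which 2 overlap by 1 base, and 2 CCAAT boxes. The Frzb window held 1 GC box and 1 TCF/LEF core, written TCAAAG because it lies on the opposite strand, 90 to 95 bases before the start. Of the windows not shown, Fzd1 held a TCF/LEF core and a TATA box, and Fzd4 held 7 GC boxes and a CCAAT box. Over all 32851 windows in the table, 13.8% held the TCF/LEF core, 33.8% a CCAAT box, 32.7% a GC box and 12.4% a TATA box. GC content was 63.6% for Sfrp2, 65.2% for Fzd7 and 64.4% for Frzb. A match is a run of letters and does not show that a factor binds there.

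Set beside each other, the 5 tested receptors had a median log2 difference of -0.11, with 2 positive and 3 negative, and the 3 tested antagonists had a median of -0.50, with all 3 negative. Over all tested probe sets the median was -0.0046 and the middle 50% lay between -0.28 and 0.26. Sfrp1 and Sfrp2 were thus below the lower quartile of all probe sets, Fzd7 was above the upper quartile, and Fzd1, Fzd3, Fzd4, Fzd8 and Dkk3 lay between them. The receptor median exceeded the antagonist median by 0.39, against a spread of 0.30 (SD) between arrays of a region in the same quantity. This gap was not tested, since the genes are not replicates, and it was 0.16 without branching replicate 2. It describes only the genes counted, as others, named after their values were seen, differed otherwise. The receptors Fzd2 and Fzd9 had differences of -0.44 and -0.40. The antagonist genes Sfrp4, Dkk1 and Dkk2 had 0.86, 1.23 and 0.09, each with arrays of both regions below background. Cer1, below background throughout, had -0.01. None of these passed. Lower signal in bulk tissue cannot be told apart from fewer cells that express the gene.

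**Figure D4:**
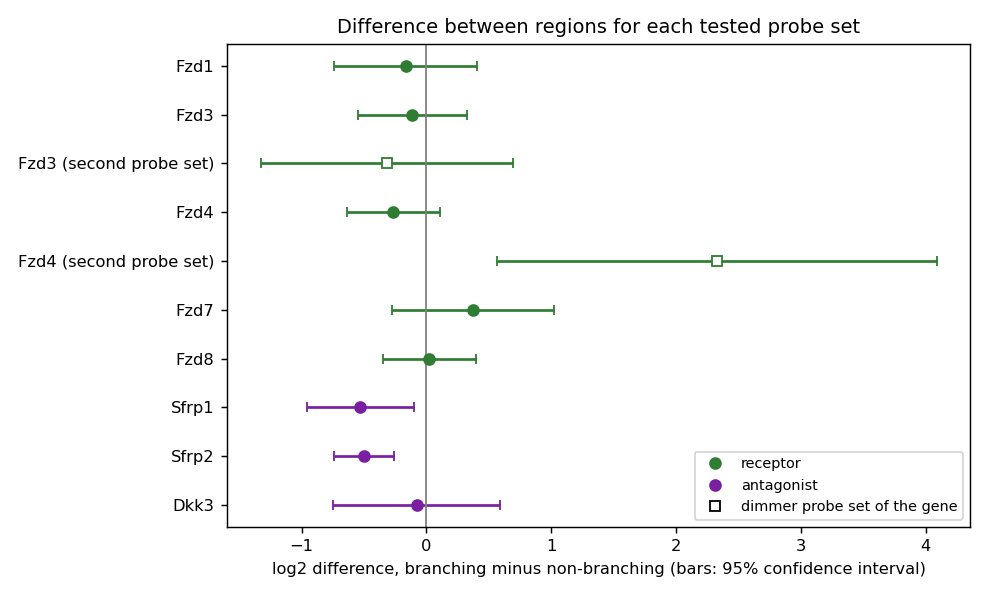
Log2 difference (branching minus non-branching) of each tested probe set with its 95% confidence interval, in green for receptors and purple for antagonists; open squares are the dimmer probe sets of Fzd3 and Fzd4. The intervals of Sfrp1 (-0.96 to -0.10) and Sfrp2 (-0.74 to -0.26) lie below 0 without adjustment for the number of probe sets, and those of the brightest receptor probe sets include 0. The second Fzd4 probe set, mostly below background, stands apart, but its plotted size and interval depend on the floor and are no measured fold.

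Around these receptors and antagonists, 63 of 99 listed genes of the Wnt pathway could be read and 58 were tested. Of the 58, 3 rose in branching, 1 fell and 54 did not pass (median log2 difference 0.08), beside 0.902% called higher and 1.13% called lower over all probe sets. At an unadjusted p under 0.05 there were 13 of the 58, beside 14.6% of all probe sets: 4 of 12 ligand and export genes, 4 of 8 other Frizzled and co-receptor genes, 4 of 11 nuclear effectors and 1 of 4 planar polarity genes. The Wnt genes that rose were Ror1, Lef1 and Celsr1, and the gene that fell was Wnt5a.

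Of 12 ligand and ligand-export genes tested, 1 fell. Wnt5a, a ligand that signals largely without beta-catenin, had values of 18.6, 27.2 and 18.2 in branching, all below background, and 266.7, 152.2 and 300.7 in non-branching. It was at least 1.57-fold lower in branching (limma adjusted p = 0.0175, and 0.0553 without branching replicate 3), a bound taken against the background level, and it passed in 2 of the 4 omissions of an array in which it was tested (0.0518 without non-branching replicate 2). Without non-branching replicate 1 or 3 it fell under the filter on dim probe sets, so its test rested on the region where it was high. Ror1, a receptor tyrosine kinase that binds Wnt5a, was the 1 gene that rose among 8 other Frizzled and co-receptor genes, with 440.8, 257.7 and 426.0 in branching and 96.7, 94.7 and 113.4, all below background, in non-branching. It was at least 2.48-fold higher (limma adjusted p = 0.0277, and 0.144 without branching replicate 3) and passed in 1 of 6 omissions. Ror2 of the same list, named after its values were seen, went the other way and did not pass. Its regions did not overlap, with a difference of -0.87 ± 0.35 (SE, limma adjusted p = 0.282), while on its dimmer probe set they overlapped (-0.12).

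Fzd2, another Frizzled receptor and named here after its values were seen, read 2607.0, 1968.3 and 2146.5 in branching and 3184.5, 2865.9 and 3023.1 in non-branching. The regions did not overlap, and the log2 difference of -0.44 ± 0.12 did not pass (SE, n = 3 per region, limma adjusted p = 0.122). Of 7 other secreted modulators tested none passed, with 0 at an unadjusted p under 0.05 by limma. The R-spondin genes Rspo1 and Rspo2, whose products enhance Wnt signalling, had differences of -0.67 ± 0.31 (limma adjusted p = 0.355) and 0.97 ± 0.45 (limma adjusted p = 0.371).

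Inside the cell, 12 transducers were tested and none passed, with 0 at an unadjusted p under 0.05 by limma. Ctnnb1, the beta-catenin gene, differed by -0.21 ± 0.11 (SE, limma adjusted p = 0.426). The casein kinase gene Csnk1a1 differed by 0.28 ± 0.14 (limma adjusted p = 0.384) and by -0.16 on its dimmer probe set (limma adjusted p = 0.692). Of 11 nuclear effectors, 1 rose: Lef1, a DNA-binding partner of beta-catenin, read 2430.0, 2806.9 and 2452.9 in branching and 1547.8, 1692.6 and 1654.9 in non-branching. The regions did not overlap, and the log2 difference was 0.65 ± 0.11 (SE, limma adjusted p = 0.0175). It passed in 1 of 6 omissions of an array, with the highest adjusted p, 0.0757, without non-branching replicate 3. On the dimmer Lef1 probe set the regions overlapped and the difference of 0.72 ± 0.37 did not pass (SE, limma adjusted p = 0.422). With no variance trend the adjusted p was 0.179 for Lef1 and 0.0762 for Ror1, and with the mean of its probe sets it was 0.172 for Lef1. With no filter on dim probe sets it was 0.0789 for Ror1.

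Of 4 genes known as Wnt targets none passed, with 0 at an unadjusted p under 0.05 by limma. Ccnd1, the cyclin D1 gene, differed by 0.08 ± 0.14 (limma adjusted p = 0.845), and Cd44 was below background on all 6 arrays. Of 4 planar polarity genes, 1 rose: Celsr1, a cadherin of the polarity complex, read 233.5, 197.0 and 200.5 in branching and 24.2, 16.1 and 34.2 in non-branching, all below background. It was at least 1.43-fold higher (limma adjusted p = 0.0239, and 0.0567 without non-branching replicate 2) and was called in 0 of the 3 omissions in which it was tested. With any branching array omitted it fell under the filter on dim probe sets, so its test rested on the region where it was high.

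**Figure D5:**
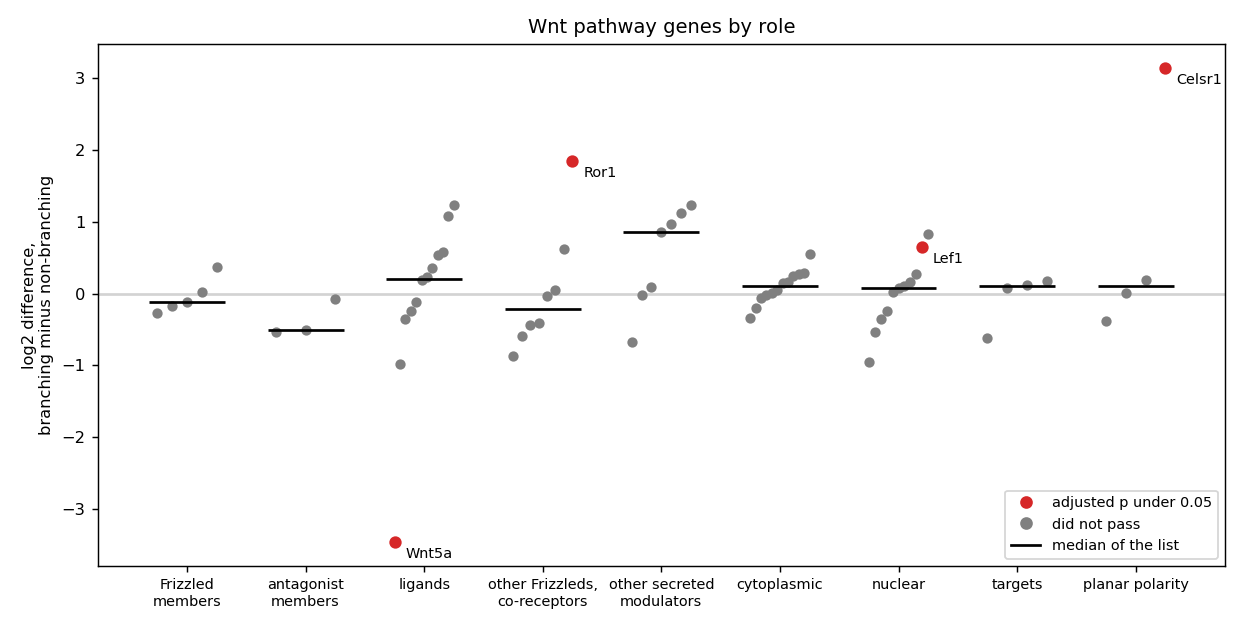
Fitted log2 difference (branching minus non-branching) of each tested Wnt pathway gene by role, red where the adjusted p was under 0.05, with black lines at list medians. Wnt5a, Ror1, Lef1 and Celsr1 passed, while the 5 Frizzled members (median -0.11) and 3 antagonist members (median -0.50) did not; for genes below background in a region, such as Wnt5a and Celsr1, the plotted size depends on the floor and is no measured fold.

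The regions also differed in markers of other tissues, and the part of these in the Sfrp1 and Sfrp2 differences was not tested. Of 9 smooth muscle markers tested, 5 fell in branching, among them Myh11, Cnn1 and Acta2, and the summed intensity of the list was 7899 to 8567 in branching and 13601 to 15030 in non-branching. Only Smtn of that list was below background on all arrays. Of 9 cartilage markers tested, 3 fell (Matn4, Col9a3 and Col9a2), with summed intensities of 3739 to 3827 and 6542 to 6773, while Acan, Matn1 and Hapln1 were below background on all arrays. Of the cartilage markers that did not pass, Col2a1, Col11a2 and Sox5 had positive differences (0.25, 0.66 and 0.88) and the other 3 had negative ones. The summed intensities of both lists were below the non-branching range on all 3 branching arrays.

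Of 8 red blood cell markers tested, 3 rose in branching (Hba-x, Hba-a1 and Hbb-y), and Epb42 was below background throughout. The list sums, 137254 to 152414 against 88630 to 96173, are mostly those 3 globins. Of the 5 that did not pass, Klf1 was lower in branching (-0.48). Hbb-bh1, Gata1, Alas2 and Slc4a1 were higher (0.12, 0.26, 0.41 and 0.88). Vwf was the 1 of 10 endothelial markers that fell (sums 4217 to 5034 against 5368 to 5768), Sox10 the 1 of 5 neural crest and neuronal markers (4244 to 4538 against 5085 to 5629) and Actc1 the 1 of 8 cardiac markers (2407 to 2506 against 3824 to 4730). Phox2a, Ret, Elavl4 and Foxd3 of the neural list and Myh6, Myl2, Nkx2-5 and Ryr2 of the cardiac list were below background on all 6 arrays. None of 16 epithelial markers tested passed (5 at an unadjusted p under 0.05 by limma, beside 14.6% of all probe sets), nor did any of 4 mesothelial markers (0 at that level), and Msln was below background. Those 5 epithelial markers went in opposite directions: Sftpc and Cldn6 were higher in branching (1.99 and 0.62), and Sox2, Foxa2 and Id2 were lower (-1.28, -0.62 and -0.45). Of 6 lung mesenchyme markers, Hoxb5 and Hoxa5 rose and Tcf21 fell (sums 6810 to 7538 against 5678 to 6395). The others, Foxf1, Ptch1 and Gli1, were higher in branching without overlap (1.42, 0.61 and 0.24) and did not pass. A dimmer Ptch1 probe set did pass (1.33, limma adjusted p = 0.0138).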

How the data were processed

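Total RNA of 6 samples, 3 per region, was measured on 1 array each. The deposited values are intensities per probe set on a linear scale. No source used here says how the authors computed them. The mean of each array, without its lowest and highest 2% of values, was 500.3, so the arrays had been scaled before deposit, as read from the values, and that scaling was kept. Precision rests on 3 arrays per region, and no detection calls were used.

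Probe sets were named from the platform annotation (10833 with 1 symbol, 396 with several, 1193 with none). RefSeq gene identifiers changed 0 symbols. After leaving out 66 control probe sets, values under 16 were set to 16, log2 was taken, and the 25% with the lowest mean were left out. The other 9316 were fitted with limma 3.58.1 in R 4.3.3 (lmFit, eBayes with a variance trend, two-sided, Benjamini-Hochberg). The fit was tested on simulated arrays with planted differences larger than those of Sfrp1 and Sfrp2. That test does not measure power for differences of their size. A gene was read by its brightest probe set. Where a region was below background on all arrays, a called gene has a lower bound, with that region's values raised to the background level.

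Named were all probe sets of the 10 genes, and in each other list the called genes (up to 3 in a marker list) or, where none was called in a Wnt list, the 2 with the smallest p. Some further genes that did not pass were named after their values were seen. Members and lists were chosen with earlier results of these data known. Alternatives changed the floor, filter, normalization, variance trend, probe set rule, block and arrays used.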

Additional observations from a re-analysis of the deposited data

How the results depend on the processing

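Receptor calls stayed at 0 under all 16 alternatives. The antagonist count became 1, Sfrp2, with values under 64 set to 64, with a pseudocount of 16, with the lowest 50% of probe sets left out, with quantile normalization, and without branching replicate 2, so omissions of an array gave 0 to 1. The Sfrp1 difference was -0.35 without branching replicate 2. The gap between the class medians of the member genes stayed positive (0.16 to 0.52).

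The sign turned for Fzd4 with the mean of its probe sets (0.69) and for other genes when an array was left out. That Fzd4 mean takes in the second probe set, mostly below background, and the third, under the floor of 16 on all arrays. The 0.69 is therefore no measured difference. Over the 6 omissions Fzd3 ranged from -0.23 to 0.043 (positive without branching replicate 1, at 0.01, or without non-branching replicate 3), Fzd1 from -0.40 to 0.016 (positive without non-branching replicate 2), Dkk3 from -0.23 to 0.15 (positive without branching replicate 2) and Fzd8 from -0.078 to 0.10 (negative without replicate 2 of either region). None of these passed, and the cause of the turns on omitting an array was not tested. Each array omitted leaves fewer samples.

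Calls over all probe sets numbered 189 as reported, 215 with the floor at 64, 255 with the lowest 50% left out, 100 with no filter, 22 with no variance trend and 61 to 150 with an array left out. Other Wnt calls numbered 4 as reported, 5 with the floor at 64, 3 with no filter, 2 with the lowest 50% left out, 2 with no variance trend and 0 to 2 with an array left out. With the lowest 50% left out, 38 of these genes were tested and the 2 calls were both higher in branching. Of the 4 genes called as reported, only Lef1 was still tested there. For single genes among those 4, the same alternatives were added after seeing the data.

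Arrays with the same replicate number did not deviate together (correlations 0.01, -0.00 and -0.02 across probe sets). With the replicate block, 114 probe sets and 1 other Wnt gene were called, and the adjusted p was 0.131 for Sfrp2, 0.0743 for Ror1, 0.0688 for Wnt5a and 0.0778 for Celsr1.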
